A study of Mus musculus with 6 samples.

Results

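Sugar breakdown and lactate release were followed through 10 genes in Eμ-Myc B-cell tumors that lacked or carried miR-146a. The genes were chosen by symbol from the 38293 genes listed, and all 10 were found: Slc2a1, Hk1, Hk2, Pfkl, Aldoa, Gapdh, Pgk1, Eno1, Ldha and Slc16a1. RNA-sequencing covered 6 tumors, each from 1 C57BL6 mouse. The 2 miR-146a-deficient tumors (Eμ-Myc miR-146a-/-) were thymic tumors from mice of 11 weeks (replicate 1) and 10 weeks (replicate 2), both labelled female. The 4 miR-146a-sufficient tumors (Eμ-Myc miR-146a+/+) came from male mice, as neck node tumors at 18 and 16 weeks (replicates 1 and 2) and thymic tumors at 10 weeks (replicates 3 and 4). All 6 mice carried the Eμ-Myc transgene, in which an immunoglobulin heavy chain enhancer drives c-Myc in B-lineage cells. The mice were compared by germline genotype, so non-malignant cells of the deficient mice lack miR-146a too. Tumors were made into single cell suspensions without a described sort, so a lower level of a gene in these bulk samples can mean fewer cells of a type or less RNA per cell, and these cannot be told apart.

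Glycolysis splits glucose into pyruvate, and lactate dehydrogenase then turns pyruvate into lactate, which restores the NAD+ that the pathway needs. Many tumors run this route at a high rate even with oxygen present. The transcription factor c-Myc is known to bind E-boxes of several of these genes, Ldha among the best studied, and HIF-1 drives many of them under low oxygen.

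All 8 B cell marker genes, Cd79a and Pax5 among them, exceeded 0.5 RPKM (reads per kilobase of gene length, corrected for sequencing depth) in at least 1 tumor. In sum they held 2138 and 1178 RPKM in deficient tumors, against 1273 to 1799 RPKM in the sufficient tumors. The Y-linked gene Ddx3y measured 0.130 RPKM in deficient replicate 1 and 24.6 RPKM in deficient replicate 2, against 17.9 to 23.0 RPKM in the sufficient tumors. The library of deficient replicate 2 therefore went against its sex label, and values without it are given where it matters. Mir146, the microRNA gene, is listed at 0 in all 6 tumors and could not check the genotype labels. Genotype and labelled sex cannot be told apart, and genotype can be set apart from tumor site only within the thymic tumors.

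The E-box that Myc binds, CACGTG, was searched in RefSeq promoter windows from 250 bases before to 50 bases after each annotated start, on GRCm38.p6. It reads the same on both strands. Of the 10 genes, 2 held it (20%), against 12.3% of the 8156 tested genes with a promoter and 8.09% of all 27025 genes. A gene counts if any of its windows holds the match. By window it was 2 of 16 (12.5%), against 7.15% of all 32851 windows. The 3 matches are printed because Ldha forms lactate and Slc16a1 carries it out of the cell; capitals mark the E-box, and all lie on the plus strand.
Ldha, 145 bases before the start, chr7:46845647-46845676: ggtgtcgcagcaCACGTGgagccactcttg
Ldha, 48 bases before the start, chr7:46845744-46845773: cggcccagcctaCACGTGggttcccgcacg
Slc16a1, 200 bases before the start, chr3:104638452-104638481: gcggcgccgggtCACGTGgcgggaaggggg
The 5-base core ACGTG lies inside both the E-box and the HIF-1 site, and was searched on both strands with E-boxes included. It occurred in 8 of 10 genes (80.0%), all except Pfkl and Eno1, against 29.9% of the tested genes. By window it was 9 of 16 (56.25%), against 19.6% of all windows. Those of Slc2a1, Hk2 and Aldoa are printed, since these genes had the largest log2 fold changes between genotypes in the thymic tumors, with the core, or its reverse complement CACGT, in capitals.
Slc2a1, 36 bases before the start, plus strand, chr4:119108697-119108726: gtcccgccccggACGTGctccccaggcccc
Hk2, 226 bases before the start, minus strand, chr6:82774663-82774692: agccacggaacaCACGTcccaactctggcg
Hk2, 52 bases before the start, minus strand, chr6:82774489-82774518: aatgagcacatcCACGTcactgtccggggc
Aldoa, 126 bases before the second listed start, minus strand, chr7:126799363-126799392: tgtggctcgagtCACGTcctagcggggcgg
Such matches are descriptions of the sequence and not measured binding.

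**Figure D1:**
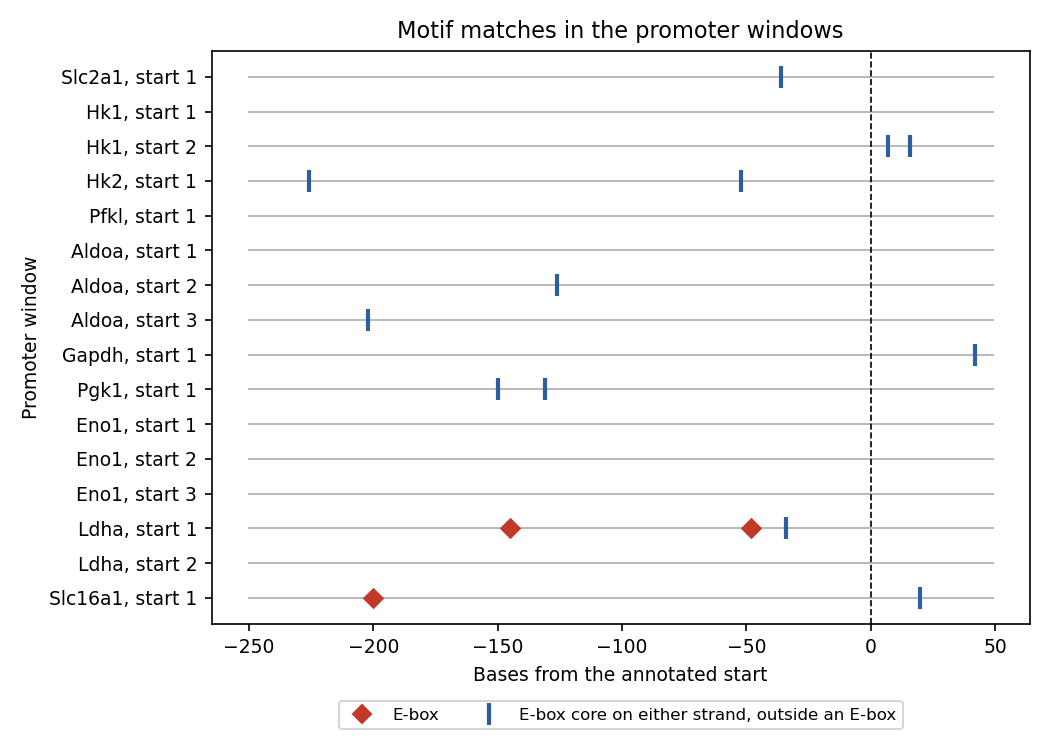
Positions of motif matches in the 16 promoter windows of the 10 genes, in bases from each annotated start (dashed line), with diamonds for E-boxes and ticks for the core outside an E-box. The 3 diamonds lie in Ldha and Slc16a1, and the windows of Pfkl and Eno1 are empty.

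The microRNA that the deficient mice lack pairs with its targets mainly through bases 2 to 8 of the mature strand, its seed, shown in capitals.
mmu-miR-146a-5p, RefSeq Mir146, minus strand, chr11:43374435-43374456: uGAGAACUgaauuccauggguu
The matching letters AGTTCTC were searched on the transcript strand in the longest 3′UTR of each gene in the GENCODE M21 annotation. They occurred in 1 of 10 genes (10.0%), Hk2, against 12.1% of 10707 tested protein-coding genes. The match starts at base 1091 of the 2285-base Hk2 3′UTR and is printed as the only one among the 10 genes, with capitals for the matching letters. A match of letters is not measured targeting.
Hk2 3′UTR: gatttgtttcaAGTTCTCactgcatagaag

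Glucose enters through Slc2a1, the transporter GLUT1, on chromosome 4 of GRCm38 (119108711 to 119137983, plus strand). Its level was 9.61 and 13.5 RPKM in the deficient tumors, against 7.62 and 10.0 RPKM for sufficient neck nodes and 5.72 and 7.79 RPKM in the thymic sufficient tumors. Both deficient tumors lay above 3 of the 4 sufficient tumors, and neck node replicate 2 lay between them. The means were 11.6 ± 2.75 RPKM (SD, n = 2) and 7.79 ± 1.77 RPKM (SD, n = 4), a log2 fold change of 0.52 (SE 0.27) on the log2(RPKM + 1) scale. This was the largest genotype difference of the 10 genes and did not pass, with an unadjusted p of 0.0868 (adjusted 0.893, limma). Without deficient replicate 2 the log2 fold change was 0.29.

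Hexokinases trap glucose in the cell by phosphorylation. Hk2, the inducible form that many tumors use, lies on chromosome 6 (82725025 to 82774454, minus strand). Its level was 8.96 and 9.15 RPKM in the deficient tumors, against 10.8 and 8.57 RPKM for sufficient neck nodes and 4.71 and 6.24 RPKM in the thymic sufficient tumors. The deficient tumors were close to each other and to the neck node tumors, and only the thymic sufficient tumors were low. The genotype difference over all 6 tumors was 0.28 (SE 0.31) on the log2 scale, and 0.10 without sufficient replicate 3. Hk1, the form found in most tissues, was the least abundant of the 10 genes. Its level was 1.71 and 0.702 RPKM in the deficient tumors, against 1.87, 1.46, 1.13 and 1.56 RPKM in sufficient replicates 1 to 4. Deficient replicate 2 was the lowest of all 6 tumors, and the other deficient tumor was second highest. The log2 fold change of -0.22 (SE 0.27) became 0.12 without deficient replicate 2.

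Pfkl encodes the liver-type subunit of phosphofructokinase, the committed step of glycolysis. Deficient replicate 2 again stood lowest, at 12.5 RPKM, while deficient replicate 1 reached 22.7 RPKM. The neck node tumors held 22.7 and 23.8 RPKM and the thymic sufficient tumors 13.9 and 18.8 RPKM. The 2 deficient tumors thus spanned nearly the whole range of the gene, and the log2 fold change of -0.19 (SE 0.30) was 0.22 without replicate 2.

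Aldoa encodes aldolase A, which cleaves the 6-carbon sugar, and lies on chromosome 7 (126795234 to 126800751, minus strand). Its level was 86.8 and 76.0 RPKM in the deficient tumors, against 93.9 and 86.7 RPKM for sufficient neck nodes and 58.0 and 46.7 RPKM in the thymic sufficient tumors. In unscaled RPKM, as for Hk2, the thymic sufficient tumors were the 2 lowest. For Aldoa this order can change with median-ratio scaling of the libraries. Its factors ran from 0.834 in sufficient replicate 3 to 1.13 in deficient replicate 2. Over all 6 tumors the genotype groups overlapped, with a log2 fold change of 0.24 (SE 0.30), which was 0.060 without sufficient replicate 4.

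**Figure D2:**
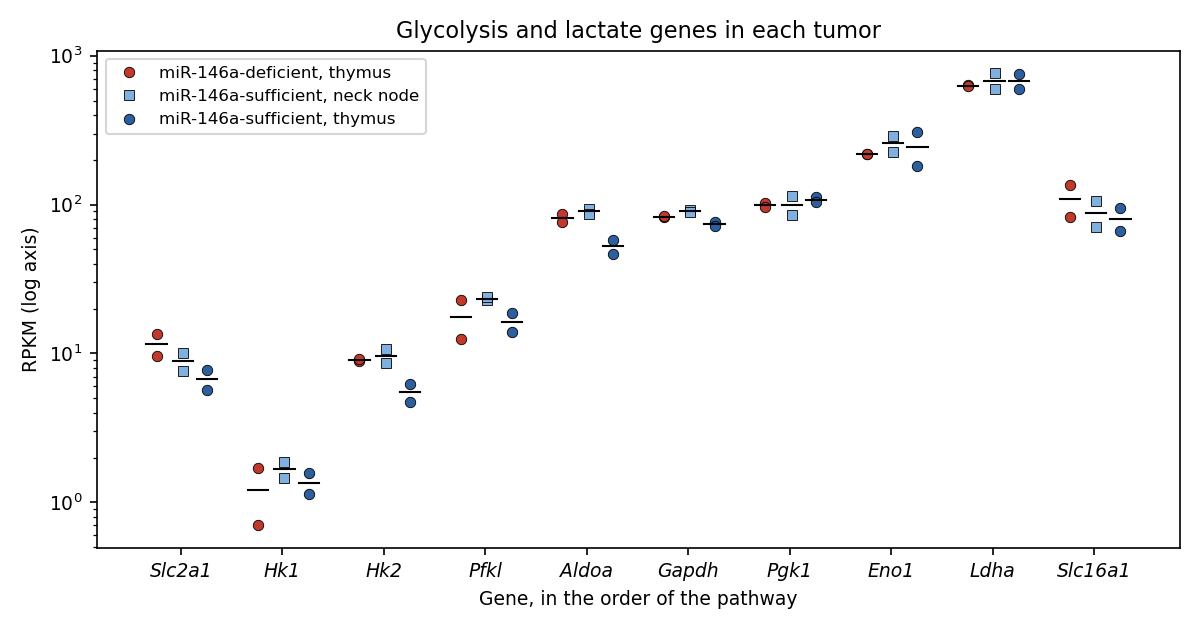
RPKM of each gene on a log axis, 1 point per tumor, for deficient thymic tumors (red circles), sufficient neck node tumors (light squares) and sufficient thymic tumors (dark circles), with bars at the mean of each pair. In these unscaled values the dark circles of Hk2 and Aldoa lie under all other points, while Ldha stays between 597 and 761 RPKM throughout.

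Gapdh, which makes NADH while oxidising the 3-carbon sugar and is a common reference gene, varied little. Its level was 82.3 and 83.5 RPKM in the deficient tumors, against 92.4 and 89.1 RPKM for sufficient neck nodes and 76.4 and 71.3 RPKM in the thymic sufficient tumors. The deficient tumors fell between the 2 sites, and the genotype means were 82.9 ± 0.866 RPKM (SD, n = 2) and 82.3 ± 10.0 RPKM (SD, n = 4). The log2 fold change was 0.02 (SE 0.20), and it was -0.15 after median-ratio scaling. The spread of Gapdh over the 6 tumors was at the 4.86th percentile of the 12751 tested genes.

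The Gapdh level is uncertain because the mouse genome holds many near-copies of its transcript. Of its 1174 windows of 100 bases, the read length, 85.8% occur without a mismatch in at least 1 of 86 other annotated genes, and 55 of these genes are in the file. Those genes together held 257 and 263 RPKM in deficient tumors, against 204 to 262 RPKM in sufficient tumors, more than Gapdh itself in each. Not all of the 55 genes are near-copies, since some share few windows, such as Gm5944 with 1. Gapdh and these 55 genes summed to 340 and 346 RPKM in the deficient tumors, against 344, 351, 321 and 275 RPKM in sufficient replicates 1 to 4. Pgk1 and Eno1 shared long stretches too. For Pgk1 it was 67.0% of windows, with both copies in the file at 0, and for Eno1 59.0%, with 25.0 and 24.5 RPKM in its copies in the deficient tumors and 20.2 to 38.0 RPKM in the sufficient tumors. For the other 7 genes the share was at most 1.28%, which was in Ldha.

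**Figure D3:**
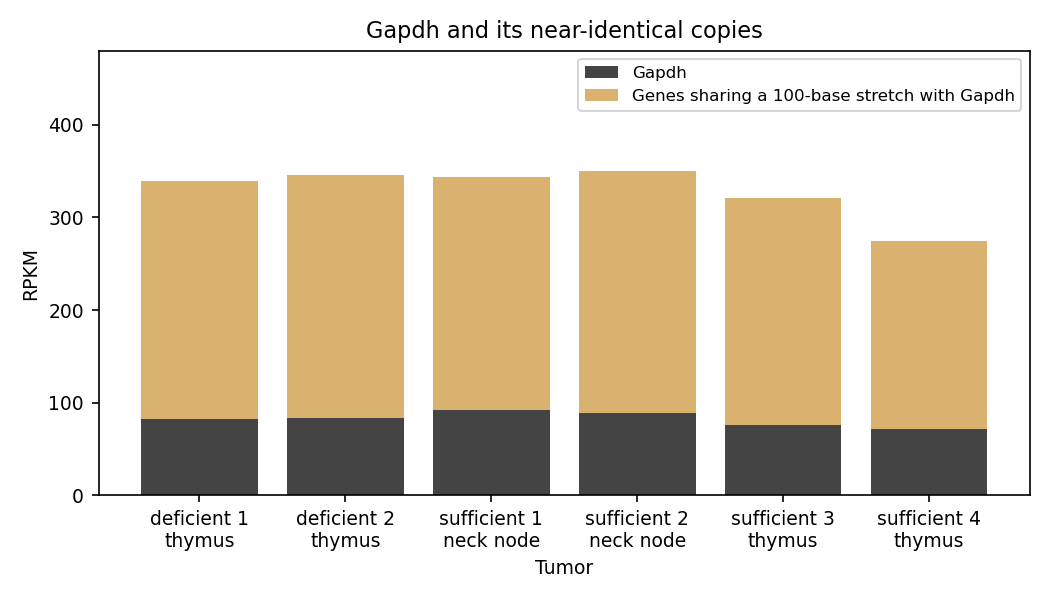
RPKM of Gapdh (dark) and the summed RPKM of the 55 listed genes that share a 100-base stretch with it (light), stacked per tumor. The light part is larger than the dark part in all 6 tumors, and sufficient replicate 4 has the lowest sum at 275 RPKM.

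Pgk1 makes the first ATP of the pathway and lies on the X chromosome. Its level was 103 and 97.0 RPKM in the deficient tumors, against 85.2, 114, 112 and 103 RPKM in sufficient replicates 1 to 4. Both deficient values lay inside the sufficient range, and the log2 fold change was -0.04 (SE 0.21). Eno1 encodes the main enolase, which forms phosphoenolpyruvate. Its deficient values of 219 and 218 RPKM nearly coincided, while the sufficient tumors ran from 182 RPKM in replicate 3 through 226 and 291 RPKM in replicates 1 and 2 to 309 RPKM in replicate 4. The 2 thymic sufficient tumors were the extremes, so their spread exceeded the difference between genotypes (log2 fold change -0.17, SE 0.26).

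Ldha, the subunit that favours lactate formation, was the most abundant of the 10 genes and stood at the 98.8th percentile of tested genes by mean level. It lies on chromosome 7 (46841475 to 46855627, plus strand). Its level was 639 and 622 RPKM in the deficient tumors, against 761, 599, 754 and 597 RPKM in sufficient replicates 1 to 4. Each sufficient site held 1 tumor above and 1 tumor below both deficient tumors. The means were 630 ± 12.2 RPKM (SD, n = 2) and 678 ± 92.0 RPKM (SD, n = 4), with a log2 fold change of -0.10 (SE 0.24, adjusted p = 0.941 from limma). In unscaled RPKM, Ldha had the smallest ratio of highest to lowest tumor, at 1.27-fold, against 1.30-fold for Gapdh and 2.67-fold for Hk1. By the SD of log2(RPKM + 1), Gapdh and Pgk1 varied less (0.136 and 0.153, against 0.160 for Ldha).

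Slc16a1 encodes MCT1, which moves lactate across the plasma membrane together with a proton, and lies on chromosome 3 (104638668 to 104658462, plus strand). Its level was 82.5 and 136 RPKM in the deficient tumors, against 106 and 70.6 RPKM for sufficient neck nodes and 66.9 and 94.2 RPKM in the thymic sufficient tumors. Deficient replicate 2 was the highest of all, while deficient replicate 1 lay in the middle of the sufficient range. The log2 fold change of 0.35 (SE 0.29) rested on that tumor and was -0.01 without it. Deficient replicate 2 was thus highest in both transporters, Slc2a1 and Slc16a1, and lowest in Hk1 and Pfkl.

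For genotype, none of the 10 genes passed an adjusted p of 0.05 in limma, over a background of 0.0627% of 12751 tested genes (8 genes). Their adjusted p-values lay between 0.893 and 0.989, and 0 of 10 had an unadjusted p under 0.05, against 3.62% of all tested genes. In unscaled RPKM the deficient and sufficient tumors overlapped in all 10 genes, and overlap was not counted after median-ratio scaling. Among all tested genes, 9.15% lay higher and 2.09% lower in the deficient tumors without overlap. The median log2 fold change was -0.01 over the 10 genes and 0.13 over all tested genes, with 5 of 10 positive against 67.6% of all. Median-ratio scaling removed the shift of all genes (median -0.01), and the median of the 10 genes was then -0.19. Markers of other cells differed between the genotype groups over the same 6 tumors, where all neck node tumors are sufficient. Of 8 macrophage markers 7 were positive, with a median log2 fold change of 0.88 and 4 at an unadjusted p under 0.05 in limma, C1qa, C1qb, C1qc and Cd68, while Lyz2 was at -0.07. Of 9 T cell markers 0 were positive (median -0.84), 3 of them at an unadjusted p under 0.05 in limma. Of 8 neutrophil markers 0 were positive (median -1.69), and 0 had an unadjusted p under 0.05 in limma. Their summed level was high only in the neck node tumors, at 1636 and 1683 RPKM. Within the thymic tumors it overlapped, at 108 and 276 RPKM in deficient and 237 and 206 RPKM in sufficient tumors. None of these markers passed after adjustment by genotype, and their part in the values of the 10 genes was not tested.

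The thymic tumors give the genotype comparison at 1 site, with 2 tumors against 2. Slc2a1, Hk2, Aldoa and Gapdh lay higher in both deficient tumors than in both sufficient ones, 4 of 10 genes against a background of 32.5%. Pgk1 alone lay lower, 1 of 10 against 10.5%. Without deficient replicate 2 these counts were 6 of 10 against 43.1% higher, with Hk1 and Pfkl added, and 1 of 10 against 17.6% lower. All these counts and their backgrounds are of unscaled RPKM and can change with median-ratio scaling. Its factors ran from 0.834 in sufficient replicate 3 to 1.13 in deficient replicate 2, and the counts were not repeated with it. The log2 fold changes were 0.69 for Slc2a1, 0.64 for Hk2 and 0.63 for Aldoa. Of the 10 genes, only Aldoa had an unadjusted p under 0.05 (0.0441), against 7.28% of all genes, and the adjusted p from limma was 0.662 for all 3. With all 6 tumors and site as a covariate, the unadjusted p from limma was 0.0477 for Slc2a1, 0.0402 for Hk2 and 0.0235 for Aldoa. This was 3 of 10 genes against 8.97% of all, and none passed after adjustment. The log2 fold changes of this fit equal those of the thymic tumors alone, since all neck node tumors were sufficient. The neck node tumors added only to the estimate of spread, so this fit is not separate evidence. The 8 macrophage markers summed to 223 and 268 RPKM in the deficient tumors, against 130 and 246 RPKM in the thymic sufficient tumors. The 9 T cell markers summed to 17.8 and 21.2 RPKM in the deficient tumors, against 53.9 and 26.2 RPKM in the thymic sufficient tumors. Their part in these values was likewise not tested.

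Tumor site was compared within the sufficient tumors, neck node over thymus, 2 against 2. None of the 10 genes passed an adjusted p of 0.05 in limma, over a background of 0.155% of 12255 tested genes (19 genes). Aldoa was at 0.78 (SE 0.24, unadjusted p = 0.0154, adjusted p = 0.584 from limma) and Hk2 at 0.72 (SE 0.28, unadjusted p = 0.0388, adjusted p = 0.618 from limma). These 2 of 10 had an unadjusted p under 0.05, against 7.87% of all genes. After median-ratio scaling it was 1 of 10, against 7.60% of all genes. Aldoa was then at 0.64 (unadjusted p = 0.0656 from limma) and Hk2 at 0.60 (unadjusted p = 0.0496 from limma). In unscaled RPKM, Hk2, Pfkl, Aldoa and Gapdh lay higher in both neck node tumors without overlap, 4 of 10 against 27.9% of all genes. In the same values 0 of 10 lay lower, against 12.6%. Of the 10 log2 fold changes 9 were positive, against 61.0% of all genes, with a median of 0.24 against 0.10 for all genes. The values of Eno1, Ldha and Slc16a1, at 0.11, 0.01 and 0.12, changed sign with median-ratio scaling.

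Neutrophil markers moved with site. All 8 were higher in the neck node tumors and 6 passed the adjusted threshold in limma. Their summed level was 1636 and 1683 RPKM in the neck node tumors and 237 and 206 RPKM in the thymic sufficient tumors. In the deficient thymic tumors, which differ from these in genotype and labelled sex, it was 108 and 276 RPKM. The part of the neutrophil markers in the site values was not tested. Age moved with site too, at 18 and 16 weeks for the neck node and 10 weeks for the thymus, and site and age cannot be told apart.

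**Figure D4:**
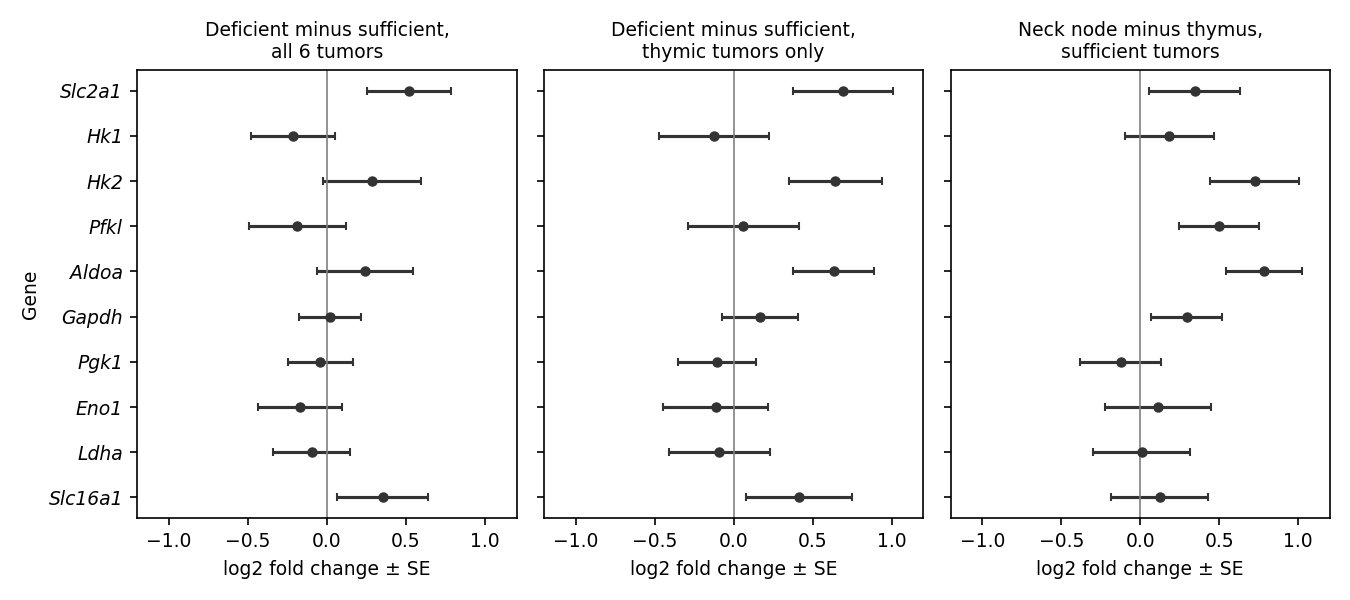
Log2 fold change on the log2(RPKM + 1) scale with its standard error from limma for each gene, for genotype over all 6 tumors (left), genotype in the thymic tumors only (middle) and neck node over thymus in the sufficient tumors (right). Aldoa and Hk2 lie at 0.63 and 0.64 in the middle and at 0.78 and 0.72 on the right, against 0.24 and 0.28 on the left.

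Shares within a gene family do not depend on the scaling of a library, so each member was also set against its paralogs. Hk1 made up 15.3% and 6.48% of the summed Hk1, Hk2 and Hk3 RPKM in the deficient tumors, against 13.1% and 12.8% for sufficient neck nodes and 18.6% and 19.2% in the thymic sufficient tumors. Both deficient tumors lay below both thymic sufficient tumors. Of the 7 families compared, no other lay apart in this way, and shares were not tested within the thymic tumors. Over all 6 tumors the difference was -5.04 percentage points (exact two-sided permutation p = 0.400), and it was -0.652 without deficient replicate 2. Pfkl made up 53.2% and 30.9% of the phosphofructokinase sum with Pfkm and Pfkp in the deficient tumors, against 50%, 54.2%, 44.8% and 48.1% in sufficient replicates 1 to 4. In deficient replicate 2 Pfkp, the platelet form, reached 15.5 RPKM, against 9.40 RPKM in deficient replicate 1 and 8.0 to 12.3 RPKM in the sufficient tumors. It was the single tumor in which Pfkp exceeded Pfkl. Slc2a1 held 57.5% and 62.3% of its sum with Slc2a3 in deficient and 56.6% to 60.9% in sufficient tumors. Slc2a3, the transporter GLUT3, measured 7.10 and 8.15 RPKM in deficient tumors, against 4.38 to 6.46 RPKM in sufficient tumors. In unscaled RPKM it lay higher without overlap, as did 9.15% of all tested genes, while its share with Slc2a1 held. Its log2 fold change was 0.47, with an unadjusted p of 0.0772 (adjusted 0.893, limma).

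The other families were nearly made up of 1 member. The lowest share over the 6 tumors was 98.6% for Aldoa, 99.8% for Ldha and 98.4% for Slc16a1. Their paralogs were low, with Aldoc at up to 1.04 RPKM, Slc16a3, the lactate exporter MCT4, at up to 1.09 RPKM, and Slc16a7 under 0.5 RPKM in every tumor. Eno1 held 93.7% to 96.9%, with Eno3, known from muscle, as most of the rest at 8.67 and 12.1 RPKM in deficient and 8.57 to 15.3 RPKM in sufficient tumors. Eno2, the neuronal form, stayed at up to 0.608 RPKM. Of 8 skeletal muscle markers, Eno3 included, 4 (Acta1, Ckm, Myh4 and Atp2a1) never passed 0.5 RPKM and the other 4 did, and the 8 summed to 15.3 and 18.7 RPKM in deficient tumors, against 14.4 to 22.0 RPKM in sufficient tumors. Ldhb, the subunit that favours pyruvate formation, stayed at 0.299 and 0.936 RPKM in deficient and 0.278 to 1.70 RPKM in sufficient tumors. None of the 7 families passed the test between genotypes, with a smallest exact permutation p of 0.400 (0.933 after adjustment). The smallest p that 2 against 4 tumors can give is 0.133.

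**Figure D5:**
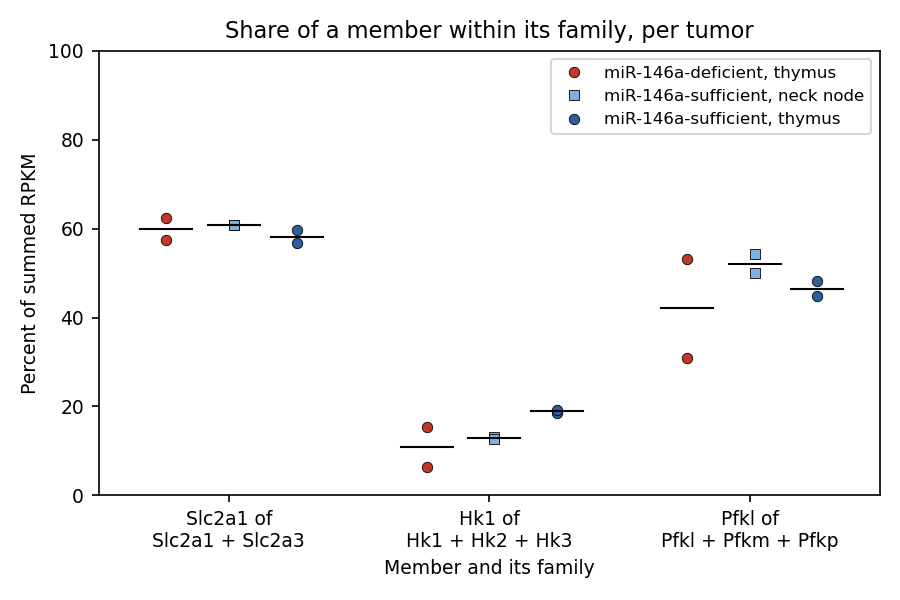
Percent of the summed family RPKM held by Slc2a1, Hk1 and Pfkl, 1 point per tumor, for deficient thymic (red), sufficient neck node (light squares) and sufficient thymic tumors (dark circles), with bars at the mean of each pair. The low red points at 6.48% for Hk1 and 30.9% for Pfkl are both deficient replicate 2.

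The summed level of the 10 genes was 1256 and 1268 RPKM in the deficient tumors, against 1408, 1294, 1275 and 1256 RPKM in sufficient replicates 1 to 4. Ldha supplied 50.9% and 49% of it in deficient and 46.3% to 59.2% in sufficient tumors. Slc16a1 supplied 6.57% and 10.7% in deficient and 5.25% to 7.54% in sufficient tumors. These shares do not depend on the scaling of a library. The sums, ranks and spread given here do, and they are of unscaled RPKM. The factors of median-ratio scaling ran from 0.834 in sufficient replicate 3 to 1.13 in deficient replicate 2, and these values were not repeated with it. No tumor was high throughout. Sufficient replicate 1, from a neck node, was highest in 5 of the 10 genes, and the thymic sufficient replicates 3 and 4 were lowest in 4 and 3. Deficient replicate 1 was neither highest nor lowest in any. The spread of the members over the 6 tumors, as an SD of log2(RPKM + 1), had a median of 0.33, against 0.31 for all tested genes, and Gapdh, Pgk1 and Ldha lay below the 10th percentile.

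In the lists of further pathway genes, none passed an adjusted p of 0.05 in limma by genotype or by site. At an unadjusted p under 0.05 there was no gene by genotype, and by site there were 1 of 17 glycolytic genes, 2 of 16 genes of lactate and pyruvate fate, 0 of 7 pentose phosphate genes and 2 of 11 genes of the HIF list, against 7.87% of all genes. Of 23 other glycolytic genes in the file 17 were tested, with 11 of 17 positive by genotype, against 67.6% of all tested genes, and a median log2 fold change of 0.04, against 0.13, from -0.21 for Pkm, the last enzyme, to 0.48 for 9630033F20Rik. Pkm stood beside Ldha in level, at 594 and 556 RPKM in deficient and 546 to 940 RPKM in sufficient tumors. By site their median was 0.06, from -0.40 for Bpgm to 0.93 for Hk3, a hexokinase known from myeloid cells. Hk3 measured 1.58 and 1.40 RPKM in the neck node tumors and 0.265 and 0.341 RPKM in the thymic sufficient tumors. The 16 tested genes of lactate and pyruvate fate had a median of 0.00 by genotype, from -0.36 for Pdhb, a pyruvate dehydrogenase subunit, to 0.40 for Pdk1, a kinase that inhibits that enzyme. By site their median was -0.26, with 5 of 16 positive against 61.0% of all genes, from -0.57 for Mpc1, part of the mitochondrial pyruvate carrier, to 0.90 for Emb, a partner of lactate transporters.

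The side branch and the 2 regulators were read in the same fits. The 7 pentose phosphate genes had a median of 0.09 by genotype, from -0.22 for Rpe to 0.33 for Rpia, and 0.26 by site, from -0.52 for Pgls to 0.44 for Taldo1. The 11 tested genes of the HIF list (Hif1a, its regulators and targets outside glycolysis) had medians of 0.02 by genotype and -0.08 by site. Vegfa, the angiogenic growth factor, was the highest of them in both comparisons (0.69 and 0.79), and Bnip3l the lowest (-0.46 and -0.86). Without deficient replicate 2, Vegfa was at 0.22 by genotype. Myc measured 451 and 909 RPKM in the deficient tumors, against 348, 472, 237 and 516 RPKM in sufficient replicates 1 to 4, with a log2 fold change of 0.77 by genotype that did not pass and was 0.26 without deficient replicate 2. The highest Myc value was in deficient replicate 2, the tumor that was highest in Slc2a1 and Slc16a1 and lowest in Hk1 and Pfkl. The lowest was in sufficient replicate 3, which was lowest in Slc2a1, Hk2, Eno1 and Slc16a1 but second highest in Ldha and Pgk1. These ranks are of unscaled RPKM and can change with median-ratio scaling. Its factor was lowest in sufficient replicate 3 (0.834) and highest in deficient replicate 2 (1.13). The ranks were not repeated with it, and a link to Myc was not tested.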

How the data were processed

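RNA libraries of 6 tumors were sequenced single-end. Each tumor had technical replicates, which are 1 column in the file, and how they were merged is not stated. The authors aligned reads with STAR (2.3.0) to GRCm38 (mm10), used HTSeq (0.5.4p3) for gene counts on the Ensembl annotation and tested counts with DESeq (1.12.1 in the labels). The deposited values are RPKM, 1 per gene and tumor, and the gene lengths and totals behind them are not stated. Without counts the depth is unknown and no counting interval was computed, so precision rests on the spread between tumors. RPKM summed to 1932930 in deficient replicate 1, against 675516 to 788919 in the other 5 tumors, because Xist alone exceeds all other genes together there. Sums without Xist were 692853 and 712244 in deficient tumors, against 673931 to 787151 in sufficient tumors.

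Values were tested as log2(RPKM + 1), a scale that understates changes of low genes, with limma (3.58.1, trend) in R (4.3.3). Genes with at least 0.5 RPKM in at least 2 tumors of the comparison were tested, 12751 by genotype and 12255 by tumor site, and all 10 members passed. P-values were Benjamini-Hochberg adjusted over all tested genes, with a threshold of 0.05. They set each difference against the spread between mice within groups, pooled over both groups and moderated over all tested genes. By genotype, the sufficient group holds both sites and their ages, which enter that spread. Family shares were compared by exact two-sided permutation tests (SciPy 1.17.1) over the 15 splits of the tumors. Fits were tested on simulated data.

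The members and gene lists were chosen with earlier results of these data known. By rule, all members, paralogs, any list gene past the threshold, or else the highest and lowest of each list, are named. Markers are given as sums and counts, and those named singly were chosen after their values were seen. Some listed genes are not reported here. Coordinates and transcripts are from GENCODE M21 (GRCm38), newer than the authors' annotation, and promoters and the microRNA from RefSeq (GRCm38.p6). Alternatives changed the pseudocount, the filter, the scaling, the prior, the tumors included, the site covariate and the replicate block. The thymic counts without deficient replicate 2 were added after the data were seen.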

Additional observations from a re-analysis of the deposited data

How the results depend on the processing

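No member passed the adjusted threshold in limma under any alternative run, with a lowest adjusted p of 0.545 over 150 alternative values by genotype and 0.417 over 110 by site. The log2 fold changes kept their direction in 136 and 100 of these. By genotype, site as a covariate and thymic tumors only each moved Pfkl to 0.062, and median-ratio scaling moved Gapdh to -0.15. By site, that scaling moved Eno1 to -0.030, Ldha to -0.14 and Slc16a1 to -0.018. Leaving out 1 tumor at a time gave ranges across 0 by genotype for Hk1 (-0.55 to 0.12), Pfkl (-0.59 to 0.22), Gapdh (-0.047 to 0.076), Pgk1 (-0.13 to 0.0064) and Slc16a1 (-0.0078 to 0.71), and by site for Pgk1 (-0.33 to 0.086), Eno1 (-0.27 to 0.49), Ldha (-0.16 to 0.18) and Slc16a1 (-0.17 to 0.42). Those that kept their sign by genotype were Slc2a1 (0.29 to 0.74), Hk2 (0.10 to 0.45), Aldoa (0.060 to 0.39), Eno1 (-0.32 to -0.063) and Ldha (-0.15 to -0.037). In percentage points, share differences ranged from -1.96 to 2.86 for Slc2a1, -9.44 to -0.652 for Hk1, -18.4 to 3.94 for Pfkl, -0.0628 to 0.472 for Aldoa, -0.920 to 0.767 for Eno1, -0.0302 to 0.0734 for Ldha and -0.111 to 0.638 for Slc16a1. The 8 genes called by genotype became 3 with the covariate, 3 in thymic tumors only and 4 to 9 without 1 tumor (4 without sufficient replicate 3, 5 without either deficient tumor). The 19 called by site became 0 without a filter (1388 at an unadjusted p under 0.05 in limma), 2 in a fit of all 6 tumors with genotype, and 11 to 67 without 1 tumor (11 without sufficient replicate 4, 32 without replicate 1 and 67 without replicate 2). The cause was not tested. With 2 tumors in a group a lone tumor is assumed to vary like the others, and differences of the size seen here could not be told from the spread.

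The replicate numbers are shared by only 2 pairs, whose deviations from the group means correlated at 0.019 and 0.213, and no label says that they pair the tumors. With the replicate block, 1 gene was called by genotype, and the log2 fold changes were -0.079 for Hk2, -0.15 for Aldoa, -0.13 for Gapdh and 0.019 for Pgk1. The blocked fit sets the deficient thymic tumors against the neck node tumors alone.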
